A study of Neurospora crassa with 6 samples.

Results

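The transcripts described here are those of 82 genes that were strongly lower in both stresses and in both strains of the filamentous fungus Neurospora crassa. They were chosen from the measured values: the log2 ratio of FPKM, with 1 added to each value, had to be at most -1.5 in os2 DS/30, os2 HS/30, wt DS/30 and wt HS/30, and the FPKM had to be at least 10 in both 30°C libraries. FPKM, the number of sequenced fragments scaled to transcript length and to the mapped fragments of the library, is a measure of transcript level. A log2 ratio of -1.5 is a level 2.83-fold lower. Of the 9730 genes measured, 4965 had enough transcript at 30°C, and 82 of those, 1.65%, met the limit in all 4 ratios. Because these ratios and the 30°C levels chose the genes, the low stress levels below are a description and not a finding.

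RNA came from conidiospores, the asexual spores of the fungus, germinated for 5 hr at 30°C in liquid Vogel's medium with 0.05% glucose. In DS, dual stress, os2 and wt cells were kept for 2 hr at 45°C with 2-deoxyglucose (2-DG), a glucose analog that blocks glycolysis. In HS, heat shock, both strains were kept for 2 hr at 45°C without 2-DG, and the controls stayed for 1 hr at 30°C, so stressed and control cells differ in time in culture as well as in temperature. The os2 strain is UCLA 80A, a single mutant strain whose os-2 gene, for an osmosensing MAP kinase, carries a point mutation that truncates the protein, and it has another strain background than wt, so mutation and background cannot be told apart. With 1 library for each strain and condition, 6 in all, differences cannot be set against a spread between replicates and carry no p-value. The number of fragments behind a single FPKM value is not known here, so its counting error is unknown. In such bulk RNA, fewer cells and less transcript per cell cannot be told apart, and a level is relative to the other transcripts of its library.

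Cells growing out of a spore spend much of their transcript pool on ribosomes, whose protein genes are known to be shut down together when growth stops. Growth also draws on sulfate uptake and methionine synthesis, on new purines and pyrimidines, and on fatty acids and ceramides for membranes. Germinating conidia of this fungus moreover fuse with each other through specialized bridges, a process that needs the ham (hyphal anastomosis) genes and the membrane fusion protein Prm1.

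The 82 transcripts were abundant before stress. Their FPKM at 30°C ran from 13.6 to 10925 in os2, with a median of 98.8, and from 14.1 to 11860 in wt, with a median of 80.6. The median of the mean 30°C level was 85.0 FPKM, against 35.1 FPKM for the 4965 genes. In DS the median level of the 82 was 9.43 FPKM in os2 and 18.9 FPKM in wt. In HS it was 10.7 FPKM in os2 and 5.93 FPKM in wt. No transcript of the 82 was listed at 0 in any library, and the lowest single value was 0.125 FPKM, for NCU04740 in wt HS. As a group they held 0.820% of the summed FPKM in os2 DS and 1.42% in os2 HS, against 5.35% in os2 at 30°C. In wt they held 0.926% in DS and 0.475% in HS, against 5.37% at 30°C. Ranked within each library, the median member stood at percentile 45.1 of all genes in os2 DS and 48.3 in os2 HS, against 89.8 in os2 at 30°C. In wt it stood at percentile 61.0 in DS and 35.9 in HS, against 87.4 at 30°C.

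**Figure D1:**
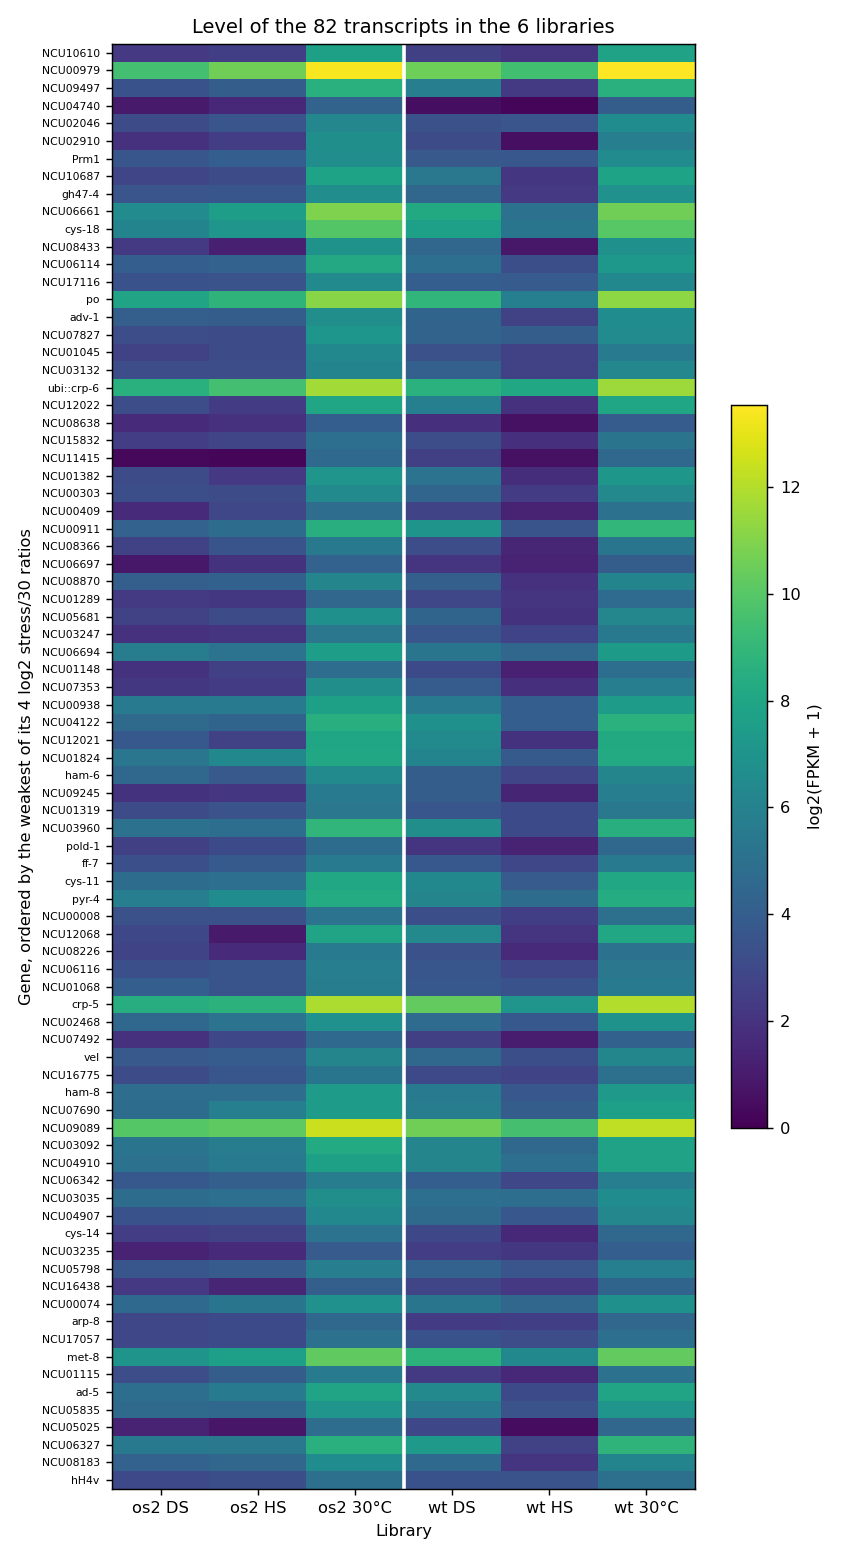
Level of each of the 82 transcripts (rows, ordered by the weakest of the 4 log2 stress/30 ratios) as log2(FPKM + 1) in the 6 libraries (columns, os2 left of the white line and wt right of it). Each row is brightest in the 30°C column of either strain, and wt HS is the darkest column for 66 of the 82 rows.

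The limit was met with different room to spare. Among the 4965 genes, 644 (13%) were past the limit in os2 DS/30 and 497 (10%) in os2 HS/30, and 255 (5.14%) in wt DS/30 and 1218 (24.5%) in wt HS/30. For os2 the median log2 ratio of the 82 genes was -2.93 in DS/30 and -2.58 in HS/30, against -0.28 and -0.23 over the 4965 genes. For wt it was -1.91 in DS/30 and -3.58 in HS/30, against -0.19 and -0.56 over the 4965 genes. In the values as deposited, the ratio of wt DS/30 was the weakest of the 4 for 59 of the 82 genes, and that of wt HS/30 was the strongest for 60. These counts were not made over the 4965 genes, where wt DS/30 likewise had the fewest genes past the limit and wt HS/30 the most. Of the 30°C level the median member kept 11.7% in os2 DS and 15.9% in os2 HS, and 25.3% in wt DS and 6.65% in wt HS. Fewer than 10% of the 30°C level was left for 30 members in os2 DS and 24 in os2 HS, and 3 in wt DS and 52 in wt HS.

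In the values as deposited, the single condition that kept most other genes out was wt DS. A further 274 genes were past the limit in the other 3 ratios but not in wt DS/30, against 67 that missed it in os2 HS/30 alone, 3 in os2 DS/30 alone and 2 in wt HS/30 alone. These 274 had median log2 ratios of -2.27 in os2 DS/30 and -2.32 in os2 HS/30, and -0.75 in wt DS/30 and -3.36 in wt HS/30. Their median mean 30°C level was 129 FPKM, above the 85.0 FPKM of the 82. With all columns brought to an equal sum, os2 HS/30 and not wt DS/30 had the fewest genes past the limit. There 237 genes were past it in os2 HS/30 and 486 in wt DS/30. The median log2 ratio of the same 82 was then -1.82 in os2 HS/30 and -2.16 in wt DS/30. Just inside the limit were the variant histone gene hH4v (NCU04338), with -1.5003 in wt HS/30, and NCU08183 (-1.5038) and NCU06327 (-1.5040), each in wt DS/30. The study lists NCU06327 as a cytochrome P450 monooxygenase acting on benzoate. Just outside were NCU06559 (-1.498 in os2 HS/30), NCU03736 (-1.497 in wt HS/30) and NCU00151 (-1.495 in os2 HS/30), so these genes on either side of the limit differed by 0.01 or less. At the lower edge of the level filter, NCU03235 was kept with 13.6 FPKM in os2 and 15.7 FPKM in wt at 30°C, and NCU01383 was left out with 9.45 FPKM in os2 and 10.5 FPKM in wt. It was 1 of 4 genes that were past all 4 ratios but too low at 30°C.

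**Figure D2:**
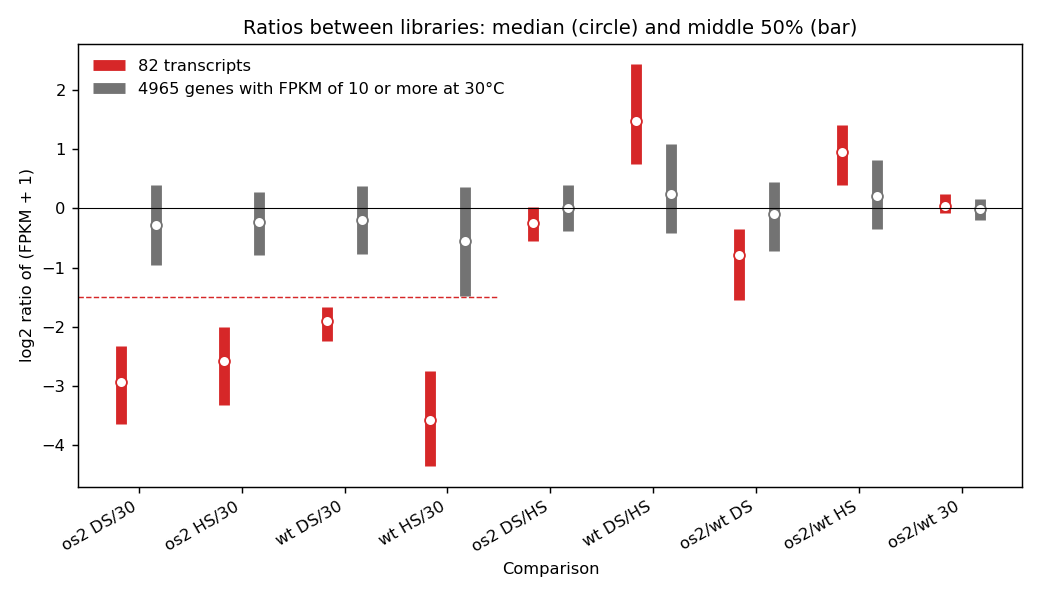
Log2 ratios of FPKM + 1 in the 9 comparisons for the 82 transcripts (red) and the 4965 genes with an FPKM of 10 or more at 30°C (grey). Circles are medians, bars the middle 50% of genes and the dashed line the limit of -1.5 that chose the 82, whose median is nearest to it in wt DS/30 (-1.91).

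The transcript with the strongest loss across all conditions was that of NCU10610, a gene with no name in RefSeq, on chromosome V of assembly NC12 (bases 701414 to 703419). It had 3.71 FPKM in os2 DS and 4.66 in os2 HS, against 207 in os2 at 30°C. In wt it had 4.98 FPKM in DS and 3.27 in HS, against 220 at 30°C. It is the only gene of the 82 with a log2 ratio of -3 or lower in every comparison with 30°C, the weakest being -5.20 in os2 HS/30. All 4 of its stress values lay close together, below 5 FPKM, which sets it apart from genes whose loss was shallow in wt DS. Of the 82 genes, 24 were at -2 or lower in all 4 ratios.

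NCU00979 on chromosome I (bases 6513544 to 6514647), without a name in RefSeq, was the most abundant of the 82 and ranked 2nd of all genes at 30°C in either strain. It had 720 FPKM in os2 DS and 1560 in os2 HS, against 10925 in os2 at 30°C. In wt it had 1519 FPKM in DS and 680 in HS, against 11860 at 30°C. It alone gave 28% of the summed FPKM of the 82 at 30°C in os2 and 30.7% in wt. Even so it stayed among the 100 most abundant transcripts in every stress library, at rank 79 (DS) and 17 (HS) in os2 and at rank 93 (DS) and 77 (HS) in wt. The next in abundance was NCU09089, also unnamed, with 1006 FPKM in os2 DS and 1174 in os2 HS, against 5651 in os2 at 30°C. Its wt values were 1570 FPKM in DS and 736 in HS, against 4887 at 30°C.

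Other unnamed genes lost nearly their whole transcript in os2 and in wt HS and kept more in wt DS. NCU10687 had 6.10 FPKM in os2 DS and 7.74 in os2 HS, against 234 in os2 at 30°C, and in wt it had 41.2 in DS and 3.39 in HS, against 226 at 30°C. NCU08433 had 3.93 FPKM in os2 DS and 1.30 in os2 HS, against 121 in os2 at 30°C, and in wt it had 20.8 in DS and 0.829 in HS, against 108 at 30°C. In both genes the wt DS value was the highest of the 4 stress values and still over 5-fold below its control. NCU02910 had 2.84 FPKM in os2 DS and 4.51 in os2 HS, against 105 in os2 at 30°C, and in wt it had 7.94 in DS and 0.461 in HS, against 53.6 at 30°C. NCU02046 was different, with like values in all stress libraries: 7.70 FPKM in os2 DS and 10.7 in os2 HS, against 76.9 in os2 at 30°C, and in wt 9.35 in DS and 11.0 in HS, against 95.0 at 30°C. NCU04740 was a low transcript throughout, with 0.940 FPKM in os2 DS and 1.95 in os2 HS, against 18.9 in os2 at 30°C, and in wt 0.434 in DS and 0.125 in HS, against 15.1 at 30°C. In RefSeq its span overlaps that of NCU04741 by 1275 bases, and the library kit as described does not keep strand, so reads of the overlap cannot be assigned to either gene with certainty.

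RefSeq matched all 82 genes and gave a symbol for 19 of them. For others the name given below is the one used by the study. In all 28 of the 82 had a name and 54 had none. The named ones fall into a few roles, a grouping made after their values were seen.

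Ribosomal proteins had the most abundant named transcripts. The gene crp-5 (NCU04552), for a cytosolic ribosomal protein, had 341 FPKM in os2 DS and 419 in os2 HS, against 3800 in os2 at 30°C. In wt it had 1244 FPKM in DS and 134 in HS, against 3954 at 30°C. Thus 31.5% of its 30°C level was left in wt DS, and 11.0% or less in the other stress libraries. Its neighbour ubi::crp-6 (NCU04553), for a ribosomal protein made as a fusion with ubiquitin, had 380 FPKM in os2 DS and 722 in os2 HS, against 3233 in os2 at 30°C. In wt it had 392 FPKM in DS and 270 in HS, against 3015 at 30°C, and so lacked the higher wt DS level of crp-5. NCU06661, named as the 60S protein L22 by the study, had 92.6 FPKM in os2 DS and 190 in os2 HS, against 1917 in os2 at 30°C. In wt it had 297 FPKM in DS and 32.7 in HS, against 1527 at 30°C.

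Of the 7 genes with a crp symbol, which leaves out ubi::crp-6, only crp-5 was among the 82, 14.3% against 1.65% over the 4965 genes. The other 6 crp genes were past the limit in os2 DS/30, os2 HS/30 and wt HS/30 and missed it in wt DS/30, where their log2 ratios lay between -0.93 (crp-10) and -0.29 (crp-4). For crp-7 (NCU08627), the most abundant of them, the values were 1326 FPKM in os2 DS and 1484 in os2 HS, against 9006 in os2 at 30°C, and in wt 4551 in DS and 670 in HS, against 8413 at 30°C. Taken over the 7 crp genes, os2 had median log2 ratios of -2.39 in DS/30 and -2.54 in HS/30, and wt had -0.78 in DS/30 and -4.35 in HS/30.

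Sulfur and methionine genes made up the largest named group, with 7 of the 82. The gene met-8 (NCU06512), for methionine synthase, which makes methionine from homocysteine, had 129 FPKM in os2 DS and 197 in os2 HS, against 1198 in os2 at 30°C. In wt it had 428 FPKM in DS and 77.6 in HS, against 1253 at 30°C. Wt DS kept 34.2% of the control level, the highest share of the 4. The gene cys-11 (NCU01985), for sulfate adenylyltransferase, the first enzyme of sulfate activation, had 26.4 FPKM in os2 DS and 29.4 in os2 HS, against 266 in os2 at 30°C. In wt it had 79.8 FPKM in DS and 13.6 in HS, against 271 at 30°C. The sulfur locus cys-18 (NCU07930) had 68.5 FPKM in os2 DS and 132 in os2 HS, against 969 in os2 at 30°C, and in wt 202 in DS and 36.9 in HS, against 1026 at 30°C. It was the deepest of the group, with -2.34 in its weakest ratio.

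Sulfate enters the cell through permeases, and both permease genes of the study's list were among the 82. The permease gene cys-14 (NCU04433) had 4.50 FPKM in os2 DS and 5.17 in os2 HS, against 34.1 in os2 at 30°C, and in wt 6.67 in DS and 1.93 in HS, against 22.3 at 30°C. The second permease gene, NCU03235, had 1.45 FPKM in os2 DS and 2.07 in os2 HS, against 13.6 in os2 at 30°C, and in wt 4.56 in DS and 3.64 in HS, against 15.7 at 30°C. The study's text instead counts sulfate permeases and sulfate adenylyltransferase among transcripts held at control levels in wt DS. In the deposited values their log2 ratios in wt DS/30 were -1.60 (cys-14), -1.59 (NCU03235) and -1.75 (cys-11). The reason for this difference was not tested. TauD (NCU03247), named after a dioxygenase that frees sulfur from taurine in Escherichia coli, had 2.77 FPKM in os2 DS and 3.06 in os2 HS, against 39.8 in os2 at 30°C, and in wt 11.1 in DS and 5.71 in HS, against 43.5 at 30°C. For these low transcripts the os2 stress values were below the wt DS value in each case. The gene NCU07690, for methylenetetrahydrofolate reductase, which supplies the methyl group for methionine, had 26.9 FPKM in os2 DS and 56.4 in os2 HS, against 178 in os2 at 30°C, and in wt 49.5 in DS and 14.9 in HS, against 196 at 30°C.

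By symbol (cys, met and eth), 16 sulfur and methionine genes had enough transcript at 30°C and 4 of them, 25%, were among the 82: cys-11, cys-14, cys-18 and met-8. Over the 4965 genes that share was 1.65%. Past the limit in single comparisons were 9 of the 16 in os2 DS/30 and 6 in os2 HS/30, and 5 in wt DS/30 and 11 in wt HS/30. Over the 4965 genes the shares were 13%, 10%, 5.14% and 24.5% in that order. The S-adenosylmethionine synthetase gene eth-1 (NCU02657) stayed outside through wt DS alone, with 362 FPKM there against 617 in wt at 30°C. In the deposited values the regulator gene cys-3 (NCU03536), which activates sulfur uptake genes, was within 2-fold of its control everywhere. It had 76.7 FPKM in os2 DS and 64.4 in os2 HS, against 76.0 in os2 at 30°C, and in wt 85.5 in DS and 51.8 in HS, against 66.6 at 30°C. The study instead reports a marked rise of the cys-3 transcript in wt DS alone, where the deposited values give a log2 ratio of 0.355. The reason for this conflict was not tested. The study's own list of sulfur genes, chosen on these libraries and so no independent evidence, had 10 genes with enough transcript at 30°C. Of these, 4 were among the 82, 40% against 1.65% over the 4965 genes.

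**Figure D3:**
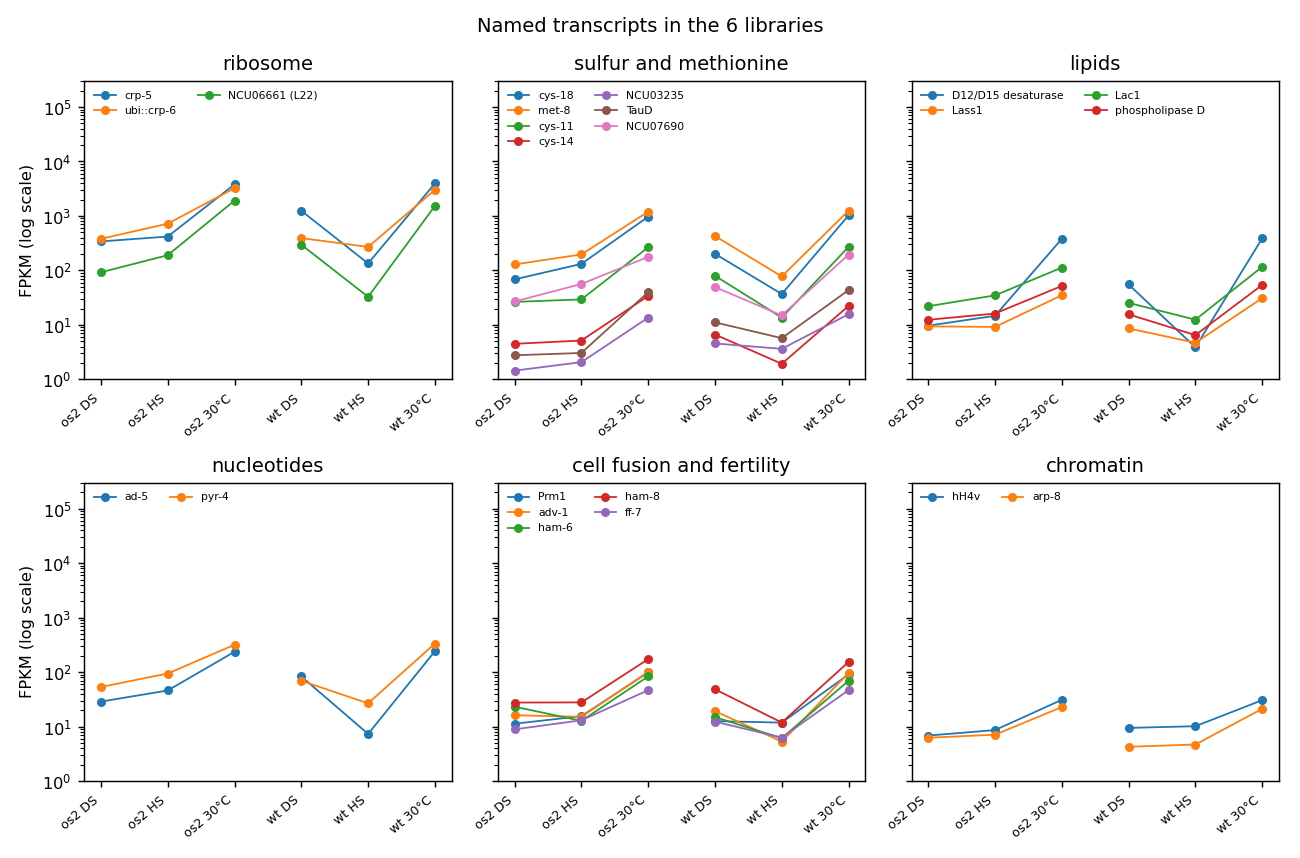
FPKM (log scale) of 23 named transcripts of the 82 in the 6 libraries, grouped by role, with lines joining the libraries of a strain. In every panel but that of chromatin wt HS is the lowest wt point, as for crp-5 (134 FPKM), while the 2 chromatin genes have like values in DS and HS.

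Lipid genes included the deepest named loss. NCU09497, a bifunctional D12/D15 fatty acid desaturase in the study's naming, an enzyme that puts double bonds into fatty acids, had 9.70 FPKM in os2 DS and 14.7 in os2 HS, against 381 in os2 at 30°C. In wt it had 55.2 FPKM in DS and 3.88 in HS, against 389 at 30°C. Thus less than 1% of the transcript was left in wt HS (0.998%), against 14.2% in wt DS. The 2 longevity-assurance genes, whose yeast relatives encode ceramide synthases, were shallower. Lass1 (NCU00008) had 9.39 FPKM in os2 DS and 9.19 in os2 HS, against 35.0 in os2 at 30°C, and in wt 8.63 in DS and 4.70 in HS, against 31.1 at 30°C. Lac1 (NCU02468) had 22.1 FPKM in os2 DS and 34.9 in os2 HS, against 113 in os2 at 30°C, and in wt 25.4 in DS and 12.5 in HS, against 117 at 30°C. Both ceramide genes had nearly the same DS level in os2 and wt. A phospholipase D gene (NCU06342), for an enzyme that cleaves the head group from phospholipids, had 12.4 FPKM in os2 DS and 16.2 in os2 HS, against 52.0 in os2 at 30°C, and in wt 15.6 in DS and 6.50 in HS, against 54.2 at 30°C.

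None of the 5 sterol and fatty acid genes found by symbol (erg and cel) was among the 82. The fatty acid synthase genes cel-1 and cel-2 had log2 ratios of -0.95 and -0.68 in wt DS/30, against -4.00 and -4.55 in wt HS/30. In the study's list of lipid genes, again chosen on these libraries, 15 genes had enough transcript at 30°C. Of these, the 4 named above were among the 82, 26.7% against 1.65% over the 4965 genes.

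For nucleotide synthesis, ad-5 (NCU02629), a bifunctional enzyme of purine synthesis, had 28.8 FPKM in os2 DS and 46.1 in os2 HS, against 237 in os2 at 30°C, and in wt 83.2 in DS and 7.34 in HS, against 242 at 30°C. The gene pyr-4 (NCU03488), for orotidine 5'-phosphate decarboxylase, the last enzyme of UMP synthesis, had 53.4 FPKM in os2 DS and 94.4 in os2 HS, against 318 in os2 at 30°C, and in wt 69.3 in DS and 26.8 in HS, against 334 at 30°C. Of the 8 ad and pyr genes, 2 were among the 82, 25% against 1.65% over the 4965 genes. Past the limit in single comparisons were 6 in os2 DS/30 and 2 in os2 HS/30, and 5 in wt DS/30 and 7 in wt HS/30. Over the 4965 genes those shares were 13%, 10%, 5.14% and 24.5%. In the ad and pyr list os2 HS, not wt DS, was the comparison that most genes missed. The gene ad-7 (NCU04216) had 110 FPKM in os2 HS, against 104 in os2 at 30°C, and 8.58 FPKM in wt HS, against 83.2 in wt at 30°C.

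Genes of cell fusion and fertility formed a further group. Prm1 (NCU09337), which acts when the plasma membranes of 2 cells merge, had 11.3 FPKM in os2 DS and 15.6 in os2 HS, against 98.9 in os2 at 30°C, and in wt 12.6 in DS and 11.8 in HS, against 90.7 at 30°C. All 4 stress values were alike, and its log2 ratios lay between -3.02 and -2.59. The transcription factor gene adv-1 (NCU07392), needed for cell fusion and development, had 16.2 FPKM in os2 DS and 15.1 in os2 HS, against 101 in os2 at 30°C, and in wt 19.3 in DS and 5.31 in HS, against 96.5 at 30°C. The fusion gene ham-6 (NCU02767) had 23.2 FPKM in os2 DS and 12.7 in os2 HS, against 83.5 in os2 at 30°C, and in wt 14.9 in DS and 6.13 in HS, against 69.6 at 30°C. It is 1 of only 3 genes of the 82 whose weakest ratio was os2 DS/30. The gene ham-8 (NCU02811), also needed for fusion, had 27.6 FPKM in os2 DS and 27.8 in os2 HS, against 173 in os2 at 30°C, and in wt 48.5 in DS and 11.9 in HS, against 154 at 30°C. The female fertility locus ff-7 (NCU04001) had 8.91 FPKM in os2 DS and 13.1 in os2 HS, against 46.6 in os2 at 30°C, and in wt 12.3 in DS and 6.30 in HS, against 46.8 at 30°C.

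Of the 9 genes with a ham symbol, a list made after the values were seen, ham-6 and ham-8 met the rule. This is 22.2% against 1.65% over the 4965 genes. Past the limit in single comparisons were 2 of the 9 in os2 DS/30 and 3 in os2 HS/30, and 2 in wt DS/30 and 5 in wt HS/30. The other ham genes differed among themselves. The genes ham-5 (NCU01789) and ham-4 (NCU00528) had log2 ratios between -0.39 and 0.52 in the 4 comparisons. Those of ham-7 (NCU00881) and ham-9 (NCU07389) were -2.09 and -2.54 in wt HS/30, against -0.21 and -0.15 in wt DS/30. Over the 9 the median was -0.64 in os2 DS/30 and -1.22 in os2 HS/30, and -0.32 in wt DS/30 and -1.72 in wt HS/30.

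Among chromatin genes, hH4v, a variant of histone H4, had 6.85 FPKM in os2 DS and 8.63 in os2 HS, against 31.1 in os2 at 30°C, and in wt 9.47 in DS and 10.2 in HS, against 30.6 at 30°C. The actin-related protein gene arp-8 (NCU06238), a chromatin remodelling subunit, had 6.25 FPKM in os2 DS and 7.10 in os2 HS, against 22.8 in os2 at 30°C, and in wt 4.27 in DS and 4.69 in HS, against 21.2 at 30°C. With NCU02046 these were the only members whose wt DS value was below wt HS. Of the 9 genes with a histone symbol hH4v alone was among the 82, 11.1% against 1.65% over the 4965 genes. The core histone gene hH3 (NCU01635) was higher in wt DS, with 7433 FPKM, than in wt at 30°C, with 3431 FPKM, while it had 870 FPKM in wt HS.

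Of the other named genes, po (NCU07408) was the most abundant, with 240 FPKM in os2 DS and 438 in os2 HS, against 2245 in os2 at 30°C, and in wt 486 in DS and 56.9 in HS, against 2382 at 30°C. The gene gh47-4 (NCU05836), of glycoside hydrolase family 47, whose members trim mannose from glycoproteins, had 11.0 FPKM in os2 DS and 11.5 in os2 HS, against 98.7 in os2 at 30°C, and in wt 21.4 in DS and 3.78 in HS, against 114 at 30°C. The remaining 2 symbols, pold-1 (NCU01192) and vel (NCU00406), had weakest ratios of -1.77 in os2 HS/30 and -1.66 in wt DS/30.

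The 11 lists taken by RefSeq symbol held 174 genes with enough transcript at 30°C, and 8 of them, 4.6%, were among the 82, where 1.65% of the 4965 genes were. No gene of the lists for complex I (29 genes), the proteasome (30), the vacuolar ATPase (14), heat shock proteins (10), amino acid synthesis (42) or chitin synthases (4) was among the 82. With so low a share over all genes, nothing is read from the zeros of such short lists. In the amino acid list 4 genes missed the limit in wt DS/30 alone.

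The strains differed little before stress, in the 82 as over the 4965 genes. At 30°C 76 of the 82 transcripts were within 1.5-fold between os2 and wt on the log2(FPKM + 1) scale, and none was 2-fold apart, where the shares over the 4965 genes were 0.322% on the higher and 0.906% on the lower side in os2. The highest os2/wt ratios at 30°C were those of NCU02910 (0.95), NCU06114 (0.93), with 287 FPKM in os2 and 150 in wt, and NCU07353 (0.92), with 102 FPKM in os2 and 53.6 in wt. The lowest were those of NCU00911 (-0.41), with 374 FPKM in os2 and 497 in wt, NCU15832 (-0.31) and NCU01289 (-0.30).

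In the values as deposited, the stressed strains departed in opposite directions in the 2 treatments. The DS direction depended on the scaling of the columns. In DS 34 of the 82 were below wt by 2-fold or more in os2 and none was above wt by that much, where 18% and 6.55% of the 4965 genes were. In HS 37 were above wt by 2-fold or more in os2 and 1 was below, where 19.4% and 8.9% of the 4965 genes were. The rule capped the level of each member in each stress library against its own control. These os2/wt counts are thus bounded by the choice of the genes, while the 4965 genes as a set carry no such cap. The pattern was not particular to the 82. Of the 274 genes that missed the limit in wt DS/30 alone, 234 (85.4%) were 2-fold lower in os2 in DS and 0 higher. In HS 124 of the 274 (45.3%) were 2-fold higher in os2 and 10 lower. The choice of the 274 by their wt DS level bounds their DS values too. The median log2 os2/wt of the 82 was -0.78 in DS and 0.95 in HS, against -0.09 and 0.22 over the 4965 genes. In HS 70 of the 82 were higher in os2 as deposited, as were 3025 of the 4965 genes, and 75 of the 82 with equal sums. Each of the 3 scalings moved log2 os2/wt HS upwards. The shift was 0.007 by the median ratio, 0.09 by the upper quartile and 0.35 with equal sums. None of them could thus reverse the HS direction. In DS 72 of the 82 were lower in os2 as deposited, as were 2695 of the 4965 genes. The DS direction did not hold once all columns were brought to an equal sum, where 38 of the same 82 were lower in os2. That scaling moves every log2 ratio of os2/wt DS by 0.89, as the summed FPKM was 484273 in os2 DS and 899576 in wt DS.

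Within each strain the 2 stresses also differed. In wt, DS was above HS for 79 of the 82 transcripts and for 2951 of the 4965 genes. It was at least 2-fold above for 52 of the 82 and 2-fold below for none, where 27.1% of the 4965 genes were 2-fold above and 8.2% below. Of the 274 genes that missed the limit in wt DS/30 alone, 250 (91.2%) were 2-fold above and 0 below. In os2, DS was below HS for 61 of the 82 and for 2476 of the 4965 genes. By 2-fold or more it was below for only 5 of the 82 and above for 4, where 5.98% and 6.49% of the 4965 genes were. The median log2 DS/HS of the 82 was -0.25 in os2 and 1.47 in wt, against 0.00 and 0.24 over the 4965 genes. The rule capped the level of each member in wt DS and wt HS against the same control, so these values are bounded by the choice of the genes. With an equal sum for all columns, DS was above HS in wt for 67 of the 82, and for 35 by 2-fold or more.

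**Figure D4:**
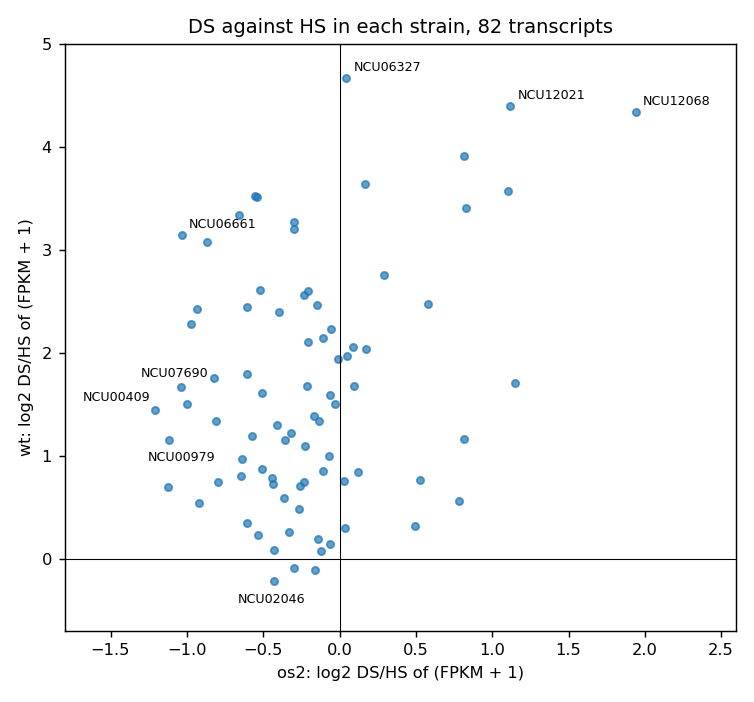
Log2 DS/HS of FPKM + 1 in os2 (horizontal axis) and in wt (vertical axis), 1 point for each of the 82 transcripts. Of these, 58 lie in the upper left, with DS below HS in os2 and above HS in wt, 21 in the upper right and 3 in the lower left.

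The widest gaps between stresses were in wt. NCU06327 had 155 FPKM in wt DS, against 5.15 in wt HS, a log2 DS/HS of 4.67, while its os2 values were 42.7 FPKM in DS and 41.3 in HS. NCU12021 had 83.4 FPKM in wt DS, against 3.02 in wt HS, and NCU12068 had 82.7 FPKM in wt DS, against 3.14 in wt HS. NCU12068 and NCU12021 were also 2 of the 3 genes with the highest os2 ratios, with 6.69 FPKM in os2 DS against 1.01 in os2 HS for NCU12068, and 12.3 against 5.15 FPKM for NCU12021. The third was NCU08226, with 5.97 FPKM in os2 DS against 2.14 in os2 HS. The lowest os2 ratios were those of NCU00409, with 2.17 FPKM in os2 DS against 6.32 in os2 HS, NCU06697, with 0.840 against 3.01 FPKM, and NCU00979, described above.

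By position the 82 genes were spread over the 7 chromosomes of NC12, with 25 on I, 4 on II, 12 on III, 10 on IV, 14 on V, 7 on VI and 10 on VII. As a share of the genes with enough transcript at 30°C this is between 0.771% on II and 2.28% on VII. The median gene span was 2519 bases, against 2376.5 bases over the 4964 genes with a position. In 4 places 2 of the 82 were direct neighbours, and each of these was on chromosome VII. They were ubi::crp-6 and crp-5 (bases 1462151 to 1464501 and 1464653 to 1466472, with 151 bases between them), NCU12022 and NCU12021, NCU06116 and NCU06114, and NCU05835 and gh47-4. Thus 8 of the 82 genes, 9.76%, had a member next to them, against 1.93% of the 4882 other genes with enough transcript at 30°C. The spans of NCU12022 and NCU12021 overlap by 406 bases, so that reads can be shared between them. They had like values, with 8.32 and 12.3 FPKM in os2 DS and 4.29 and 5.15 in os2 HS, against 258 and 258 in os2 at 30°C, and in wt 56.6 and 83.4 in DS and 2.81 and 3.02 in HS, against 251 and 298 at 30°C. Of the 82 genes 20, or 24.4%, overlapped a neighbour in RefSeq, against 29.9% of the genes with enough transcript at 30°C. Among them are ubi::crp-6 (1223 bases shared with NCU04554), NCU06661 (918 bases) and po (824 bases), whose overlapping partners had at most 47.2, 6.13 and 5.04 FPKM in any library.

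Over the whole series, the transcript of os-2 (NCU07024) itself had 37.5 FPKM in os2 DS, 37.0 in os2 HS and 34.3 in os2 at 30°C, against 67.1, 65.1 and 113 FPKM in wt DS, wt HS and wt at 30°C. A point mutant can make a transcript, so this value checks the strain only in part. The summed FPKM of the libraries ran from 426267 to 899576, while the median over genes above 0 ran from 13.5 to 15.4. With an equal sum for all columns the log2 ratios moved by 0.59 in os2 DS/30 and 0.77 in os2 HS/30, and -0.32 in wt DS/30 and 0.41 in wt HS/30. All 82 transcripts stayed below their control in all 4 ratios under each of the 3 scalings. This outcome was fixed by the choice of the genes and says nothing about stability. The largest upward shift of these ratios, 0.77 in os2 HS/30, is smaller than the fall that the rule required. With equal sums 73 of the 82 stayed at least 2-fold below their control in all 4 ratios. Of the conidiation genes, which mark spores rather than growing cells, con-6 (NCU08769), con-8 (NCU09235) and con-10 (NCU07325) had their highest levels in wt HS, with 226, 313 and 585 FPKM, against 6.40, 21.5 and 34.9 FPKM in wt at 30°C, and con-13 (NCU07324) was at 1.72 FPKM or less in all libraries. The spore coat gene eas (NCU08457) was lower, with 30.7 FPKM in wt HS against 308 FPKM in wt at 30°C. In os2 the highest values of con-6, con-8 and con-10 were 25.5, 161 and 40.4 FPKM, all in os2 DS. The growth genes act (NCU04173), Bml (NCU04054) and hH3 were at 384, 125 and 870 FPKM in wt HS, against 1025, 588 and 3431 FPKM in wt at 30°C. Wt HS was also the lowest library for 66 of the 82. This count was not made over the 4965 genes, whose median log2 ratio was likewise deepest in wt HS/30 (-0.56). The part of a shift between spores and growing cells in the levels of the 82 was not tested.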

How the data were processed

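Polyadenylated RNA of 6 cultures, 1 for each strain and treatment, was made into TruSeq libraries and sequenced in pairs. The authors checked the reads with FastQC after CASAVA 1.8.2, aligned them with TopHat to the 74a_12 genome and deposited FPKM values from Cufflinks for 9730 genes. Other versions, and any scaling between libraries, are not given in the sources used here. The Cuffdiff p-values of the study were not used. Low values were not whole steps, so fragments could not be recovered, and a single row (1) that named no gene was dropped.

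Log2 ratios were computed with 1 added to each FPKM, in Python 3.11.15 with numpy 2.4.6, pandas 2.3.3 and matplotlib 3.10.9, and the rule was tested on simulated data. A 2-fold difference or more was counted, with no test, since each group has 1 library. The genes, lists and names were chosen with earlier results of these data known. Named were os-2, the 12 members with the deepest weakest ratio, the 6 most abundant at 30°C, members with a symbol or a name in the study's tables, 3 genes on each side of the limit and the 3 highest and lowest members in DS/HS of each strain and in os2/wt at 30°C. Other genes were named from the lists after their values were seen. Lists went by RefSeq symbol (assembly NC12, 9729 identifiers matched, 1118 symbols). The alternatives were 3 scalings of the columns, pseudocounts of 0.1 and 5, no level filter, an FPKM of at least 50 and log2 limits of -1 and -2.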

Additional observations from a re-analysis of the deposited data

Results flagged for a closer look

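In 4 of the 82 transcripts DS was at least 2-fold above HS in wt and at least 2-fold below HS in os2, so that the strains moved in opposite ways between the same treatments. This difference was not tested, since each value is 1 library. Over the 4965 genes 27.1% were 2-fold above in wt DS/HS and 5.98% were 2-fold below in os2 DS/HS. The share of those genes with both changes was not counted, so the 4 are not read as more than a background. NCU00409 had a log2 DS/HS of -1.21 in os2 and 1.44 in wt. NCU00979, the most abundant of the 82, had -1.12 in os2 and 1.16 in wt. The ribosomal protein gene NCU06661 had -1.03 in os2 and 3.14 in wt, and the methylenetetrahydrofolate reductase gene NCU07690 had -1.04 in os2 and 1.66 in wt. With all columns brought to an equal sum, all 4 kept these signs, but the wt ratio was 0.87 for NCU00409, 0.43 for NCU00979 and 0.96 for NCU07690, below 2-fold. The number of such transcripts and which they were thus changed with the scaling. It was 5 with equal sums, of which NCU06661 alone was among the 4, and 7 with the columns scaled to the same upper quartile, all 4 included. With median-ratio scaling the same 4 were found. In the values as deposited, no transcript of the 82 showed the opposite pattern at 2-fold.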

How the results depend on the processing

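Of the 180 single values (medians and list counts) 132 moved by less than 0.1 on the log2 scale or 1.5 times, and none changed sign past 2-fold; for the counts of genes 93 of 144 stayed within 1.5 times. The genes were chosen anew under each setting. With all columns brought to an equal sum, 71 genes met the rule, 49 of them among the 82; 316 (os2 DS/30), 237 (os2 HS/30) and 486 (wt DS/30) genes were past the limit, and of the members 16 were 2-fold lower in os2 than wt in DS, 0 in HS and 1 at 30°C. Scaled by the median ratio, 88 genes met it, all 82 included, and 1 was 2-fold higher in os2 at 30°C; scaled to the same upper quartile, 74 met it, and 9 were 2-fold lower in os2 DS/HS. With a pseudocount of 0.1 there were 102 members, of which 1 was 2-fold higher in os2 at 30°C, 2 in DS, and 3 were lower in HS. With a pseudocount of 5 there were 54 members, 136 genes past the limit in wt DS/30, 0 members up and 2 down in os2 DS/HS, 18 higher and 0 lower in os2 HS, 22 lower in os2 DS, and 5 in the symbol lists. Without the level filter 86 genes met the rule. An FPKM of at least 50 left 53 members, with 349 (os2 DS/30), 313 (os2 HS/30), 118 (wt DS/30) and 703 (wt HS/30) genes past the limit, and 3 members down in os2 DS/HS. A log2 limit of -1 gave 296 members, with 1187, 913, 806 and 1841 genes past it in those ratios, 29 members down in os2 DS/HS, 149 up in wt DS/HS, 129 higher and 2 lower in os2 HS, 3 higher and 102 lower in os2 DS, 1 higher and 1 lower in os2 at 30°C, and 17 in the symbol lists. A limit of -2 gave 24 members, with 350, 317, 85 and 771 genes past it, 1 member up and 2 down in os2 DS/HS, 16 up in wt DS/HS, 11 higher and 0 lower in os2 HS, 11 lower in os2 DS, and 1 in the symbol lists. The counts under a stricter or looser limit or filter differ because other numbers of genes are taken in; the cause of the other shifts was not tested. No paired analysis was possible because each group has 1 library, and for the same reason no library could be left out. The depth behind single values is unknown.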
